A study of Homo sapiens with 13 samples.

Results

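The FTO locus contributed 263 of the 4468 reference and alternative allele pairs in a reporter library of variants associated with adolescent idiopathic scoliosis, in which the growing spine curves to the side. Members were all allele pairs named for chromosome 16 with a position between 53 and 54.8 Mb on hg19. They lay at 91 positions and comprised 354 elements, 91 reference and 263 alternative, of 6047 variant elements in the library. The pairs were 258 substitutions, 4 deletions and 1 insertion. At 86 positions each of the other 3 bases was tested against 1 shared reference element, so the pairs of a position were not independent of each other.

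The library was measured by lentiMPRA, a massively parallel reporter assay in which a lentivirus integrates each element into the genome beside a barcoded transcript. Barcode RNA relative to barcode DNA reads the strength of transcription that an element drives. Barcodes were counted in DNA and RNA of TC28a2, a human chondrocyte line, and of SW1353, a human chondrosarcoma line used as a model of chondrocytes, in 3 replicates each, 48 hours after infection. Each cell type is represented by a single line, both lines received the library with no further treatment named, and the labels do not say whether replicates were separate cultures, so that the p-values below measure the spread between these samples, which may be technical. Cell-type markers could not be checked, since reporter barcodes were the measured molecules.

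FTO encodes an RNA demethylase. Its first intron holds a block of common variants that are inherited together and are best known for their association with body weight, and enhancers in that intron have been linked to the homeobox genes IRX3 and IRX5. A reporter assay tests a short piece of such an intron outside its own position in the genome, so that it reads the piece's own capacity to drive transcription and not its contact with a gene.

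The 91 positions ran from 53798622 to 53845487 of chromosome 16, a span of 46.9 kb. From general knowledge of hg19 this span lies within the first intron of FTO, but no gene annotation of that build was used here. Neighbouring positions were a median of 271.5 bp apart, with the smallest gap of 7 bp and the largest of 5373 bp, between 53831771 and 53837144. The library held 10 scrambled controls named for windows of 200 bp in this span, 9 of them centred on a member position and 1 on a position with no member. If the variant elements had the same length, 57 of the 91 positions shared sequence with at least 1 other. The sequences of the elements were not used here, so no bases are shown.

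Total counts over the whole library were 5523658 to 5738307 per DNA sample and 22048832 to 22212124 per RNA sample in TC28a2, and 15582658 to 15626361 and 37571404 to 37631975 in SW1353. Each allele and replicate held at most 500 barcode positions, so these totals are not the full depth. A median member element had 1793.5 DNA and 6152 RNA counts over the 3 replicates in TC28a2, and 3148.5 and 5507 in SW1353. In TC28a2, 40 of the tested members filled position 500 in DNA or RNA, and in SW1353 22 did. Counts at the same barcode position of a member element correlated only weakly between labelled replicates. Over positions 51 to 200, r was 0.214 in TC28a2 DNA, 0.176 in TC28a2 RNA and 0.163 in SW1353 DNA, over 342 to 343 elements. In SW1353 RNA it was -0.065 over 309 elements. A replicate label may cover counts that came from more than 1 sample, most of all in SW1353 RNA. The correlations alone do not settle this, and it was not resolved here. The values per replicate, their SDs, the p-values and the counts with a replicate left out are given by label, and their spread may be in part one between sets of barcodes. Counts were summed over all positions of an element.

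Of the 354 elements, 347 had at least 10 DNA barcodes in every replicate of a line and were tested in that line. The 7 untested elements of each line belonged to the positions 53801343 and 53823727. The element with the fewest counts, the C allele at 53823727, had 7 DNA counts in TC28a2 and 7 in SW1353. Of the 263 pairs, 257 could be tested in each line.

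Activity is given below as log2 of RNA over DNA relative to the median of 191 scrambled sequences in the same line, so that 0 is the level of the median scrambled sequence. The spread among the scrambled sequences does not enter the test, and single scrambled sequences can be called above that level. In TC28a2, 115 of the 347 tested members were above that level, against 32.3% of all elements tested in the library, and 4 were below it, against 2.71% (edgeR quasi-likelihood test, adjusted p under 0.05). In SW1353, 148 members were above, against 48.8% of all elements, and 0 were below, against 1.73%. No member was below at an unadjusted p under 0.05 either, and DESeq2 also called 0 below. The SW1353 library held further groups of elements, which enter its percentage. Among variant elements alone, 27.1% were above in TC28a2 and 37.7% in SW1353. The median member was at 0.35 in TC28a2 and 0.47 in SW1353, and the median over all variant elements at 0.27 and 0.42.

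Both kinds of element were among those called above. In TC28a2, 33 of 89 reference and 82 of 258 alternative elements were above the scrambled level, and in SW1353 37 of 90 and 111 of 257. The counts depended on what served as the zero. Relative to the median of all elements instead of the scrambled ones, the TC28a2 split was 20 members above and 11 below, and the SW1353 split 30 above and 16 below. They also depended on the replicates in TC28a2, where 74, 76 and 69 members were above without replicate 1, 2 and 3. When the highest barcode of each element was left out in each DNA and RNA sample separately, 177 were above.

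Activity varied more between positions than between the alleles of a position. Over the 84 positions with 4 tested alleles in each line, the SD among the alleles of a position was 0.168 in TC28a2 and 0.223 in SW1353, while the SD between position means was 0.271 and 0.315. The median SD over replicates of a tested member was 0.252 and 0.264, so the SD among alleles also holds spread between replicates. How much of it is due to the alleles was not tested. All 4 alleles were above the scrambled level at 12 positions in TC28a2 and at 21 in SW1353, and none at 36 and 30. The means of the 84 positions followed each other between the lines, with Pearson's r = 0.760 and Spearman's rho = 0.670 over positions, some of which share sequence and all of which share the library.

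At 10 positions all 4 alleles were above the scrambled level in both lines, and they were spread over the locus. In genome order they were 53800200, 53803223, 53816752, 53821862, 53822142, 53822183, 53831146, 53831354, 53831771 and 53842908. Apart from the pair at 53822142 and 53822183, their 4-allele means in TC28a2 were lowest at 53800200 (0.43) and highest at 53831146 (0.73), and those in SW1353 lowest at 53816752 (0.57) and highest at 53831771 (0.92). At a further 24 positions no allele was above in either line. Split into stretches of 10000 bp from the first position, the share of elements above was 42.2%, 30.3%, 24.3%, 38.1% and 62.5% in TC28a2 and 55.4%, 40.9%, 30%, 52.4% and 68.8% in SW1353. The middle stretch, which held 37 of the positions, had the lowest share in both lines although it contained the most active elements, and the last share rested on 16 elements at 4 positions.

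The most active stretch lay around 53822142, 53822169 and 53822183. Centred 200-bp windows at these positions would share 173 bp between 53822142 and 53822169 and 186 bp between 53822169 and 53822183. All 10 of their elements were above the scrambled level in each line. The reference element at 53822142 was at 1.11, 1.42 and 1.32 in the 3 replicates of TC28a2 and at 1.78, 1.68 and 1.12 in SW1353. The reference element at 53822183 was at 1.42, 1.03 and 0.96 in TC28a2 and at 1.52, 1.27 and 1.30 in SW1353. Every replicate of both elements was thus well above the level of a median member in its line.

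Over 4 alleles, the position 53822142 averaged 1.30 ± 0.075 (SD, n = 3 replicates) in TC28a2 and 1.61 ± 0.144 in SW1353, and at 53822183 it was 1.09 ± 0.114 and 1.42 ± 0.117. Mean activity was lower on both sides. At 53821862, 307 bp upstream of 53822169, the mean was 0.68 ± 0.268 in TC28a2 and 0.86 ± 0.042 in SW1353. At 53822387, 218 bp downstream, it was 0.16 ± 0.053 and 0.33 ± 0.164. Neither flanking window would overlap that of 53822169.

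The allele of largest effect in the locus lay in this stretch. It deletes a single T at 53822169, and it was the 1 of 257 tested members called for an allelic effect in each line, against 0.0227% of all pairs tested in each line. In TC28a2 the reference element was at 0.74, 0.98 and 1.07 and the deletion element at 2.78, 2.79 and 2.49. In SW1353 the reference element was at 1.14, 1.61 and 1.41 and the deletion element at 3.16, 2.98 and 3.37. The 2 alleles did not overlap in either line, and the deletion was higher in each of the 3 replicates. The fitted effect was a log2 difference of 1.76 (SE 0.132, edgeR adjusted p = 1.88e-06) in TC28a2 and 1.78 (SE 0.164, edgeR adjusted p = 0.00066) in SW1353. Without replicate 3 the SW1353 effect was 1.69 (SE 0.196) and its edgeR adjusted p 0.129, and over the other alternatives of that line the effect lay between 1.67 and 1.99. In TC28a2 it lay between 1.62 and 1.93 over all 7 alternatives that could test it.

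The larger signal of the deletion was in RNA and not in DNA. In TC28a2 the reference allele had 3949 DNA and 21480 RNA counts and the deletion 3756 and 69181. In SW1353 the reference had 6709 and 21370 and the deletion 6462 and 70038. These RNA counts of the deletion were the highest of any member in either line.

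The difference was spread over barcodes. The median DNA count per barcode was 3 for both alleles in every replicate of TC28a2, and 5 for both in SW1353. The median RNA count per barcode was 10, 11 and 11 for the reference and 29, 37 and 26 for the deletion in TC28a2. In SW1353 it was 14.5 in all 3 replicates of the reference and 29, 28 and 36 for the deletion. The gap there was wider at the 90th percentile, with 58.6, 72.9 and 62.3 for the reference and 187, 227 and 241.2 for the deletion. Barcodes with RNA in SW1353 numbered 208 to 252 for the reference and 259 to 301 for the deletion. The single highest barcode held 8.17% to 11.8% of the deletion's RNA counts in TC28a2, where it held 6.46% to 8.43% of the reference's. In SW1353 these shares were 7.75%, 10.02% and 8.17% for the deletion and 10.06%, 14.7% and 7.75% for the reference. With the highest barcode of every element left out in each sample separately, the effect was 1.74 (SE 0.124) in TC28a2 and 1.84 (SE 0.120) in SW1353.

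The deletion element stood well clear of the rest of the locus. The next highest member was the G allele at 53822142 in TC28a2, with a mean of 1.37, and the T allele at the same position in SW1353, with 1.78. The reference element of 53822169 itself, at 0.93 ± 0.170 in TC28a2 and 1.39 ± 0.239 in SW1353 (SD, n = 3), lay close to the reference elements of its overlapping neighbours, 1.29 ± 0.159 and 1.53 ± 0.357 at 53822142 and 1.14 ± 0.247 and 1.36 ± 0.136 at 53822183. The deletion element was thus above all 3 reference elements in each line. The allelic effect differed between lines by 0.03 (SE 0.214, edgeR adjusted p = 1).

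The 6 substitutions at the neighbouring positions were measured at like depth and were far smaller. At 53822142 the effects were -0.03 for C53822142A, 0.09 for C53822142G and 0.01 for C53822142T in TC28a2, with SEs of 0.142 to 0.158. In SW1353 they were -0.06, 0.14 and 0.25, with SEs of 0.168 to 0.177. At 53822183 the effects of C53822183A, C53822183G and C53822183T were 0.04, 0.07 and -0.30 in TC28a2 (SEs of 0.144 to 0.158) and 0.10, 0.22 and -0.08 in SW1353 (SEs of 0.132 to 0.147). None of the 6 passed the test in either line. In these names the reference base comes first, then the position counted from the start of the chromosome, then the alternative base.

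The other 4 insertions and deletions of the locus were not called in either line. Deletion of ACC at 53799269 had an effect of 0.03 (SE 0.170) in TC28a2 and 0.04 (SE 0.205) in SW1353. Deletion of TTTT at 53812770 had -0.30 (SE 0.219) and -0.08 (SE 0.253). Deletion of AAA at 53822514, 345 bp downstream of the called deletion, had -0.06 (SE 0.227) and -0.24 (SE 0.245). Insertion of TC at 53829963 had 0.00 (its fold was 0.998, SE 0.198) and 0.24 (SE 0.220). Each of these 8 values lay within 1.5 of its SE from 0.

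None of the substitutions passed the test. At an unadjusted p under 0.05 the pairs numbered 6 of 257 in TC28a2, against 2.64% of all pairs tested, and 7 of 257 in SW1353, against 3.27%, each count with the deletion included. DESeq2 gave 8 and 12 at the same unadjusted threshold and called the deletion alone after adjustment in each line. Substitution effects had a lowest value of -1.11 and a highest of 1.05 in TC28a2, against -1.21 and 1.05 in SW1353, and 240 and 225 of the 252 lay within 0.5 of 0. The median absolute effect of a member pair was 0.146 in TC28a2 and 0.181 in SW1353, below the median SE of 0.236 and 0.252. Over all pairs of the library the median absolute effects were 0.138 and 0.176.

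The largest substitution effects in TC28a2, in either direction, came from elements with fewer DNA counts than the median member. T53830491C, the pair of next lowest p in TC28a2, had replicate effects of 0.47, 1.29 and 1.37 there and a fitted effect of 1.05 (SE 0.314, edgeR adjusted p = 1), with 690 and 635 DNA counts for its alleles. In SW1353 its replicates were at -0.65, 0.13 and -0.09. A53818813C had effects of -1.50, 0.07 and -1.82 in TC28a2, and its reference element had 139 DNA counts over 3 replicates. C53821862T and A53824226T followed in TC28a2, with fitted effects of 0.44 (SE 0.166) and -0.52 (SE 0.212). The 3 replicates of C53821862T were all positive in both lines, at 0.59, 0.32 and 0.39 in TC28a2 and 0.08, 0.46 and 0.27 in SW1353, but neither line passed the adjusted threshold.

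In SW1353 the pair of next lowest p was A53821615G, with replicate effects of -0.62, -1.22 and -1.78 and a fitted effect of -1.21 (SE 0.396, edgeR adjusted p = 0.991). Its reference element was at 0.94, 1.53 and 2.39, a spread of more than 1 log2 unit on 953 DNA counts. T53820527G had effects of 1.10, 1.46 and 0.25, C53809123G of 0.09, -1.15 and -0.65, and G53800754A of -0.91, -0.29 and -0.27. Their fitted effects were 0.94 (SE 0.355), -0.57 (SE 0.228) and -0.49 (SE 0.208). In TC28a2 the same 4 pairs had fitted effects of -0.30, 0.14, -0.02 and 0.01 in that order.

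Tested over all 3 alternative bases of a position at once, no position of the locus was called by edgeR in either line, as in the whole library (0% of positions). At an unadjusted p under 0.05 there was 1 of 84 positions in TC28a2, against 2.53% of all positions, and 2 in SW1353, against 3.38%. DESeq2 called 0 and had 2 and 3 at the unadjusted threshold. The lowest edgeR p in TC28a2 were 0.0194 at 53830491, 0.0613 at 53822183 and 0.113 at 53824226. Those in SW1353 were 0.0123 at 53820527, 0.032 at 53821615 and 0.0698 at 53822502. No position was among the lowest in both lines.

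Effects were of like size across the kinds of base change, which were described and not tested. Transitions and transversions had median absolute effects of 0.145 and 0.147 in TC28a2 and 0.197 and 0.176 in SW1353. Changes to C had the lowest median effect in each line, -0.10 in both, with 22 of 59 above 0 in TC28a2 and 26 of 59 in SW1353. For changes to A, G or T the medians lay within 0.03 of 0. Substitution effects followed each other weakly between lines, with r = 0.172 over 252 pairs that share reference elements, and 142 of them (56.3%) had the same sign.

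Several members are, from general knowledge of hg19, common variants known for their association with body mass index, and they were picked here on that knowledge after their values were seen. T53800954C, at a much studied site among these, had an effect of -0.20 (SE 0.159) in TC28a2 and -0.25 (SE 0.169) in SW1353. T53820527A, a commonly genotyped variant, had 0.03 (SE 0.248) and -0.13 (SE 0.256). T53803574A, G53809247A, T53813367G and C53816275A had TC28a2 effects of -0.06 to 0.13 and SW1353 effects of -0.22 to 0.30. No member of this group of 6 was called in either line. Their SEs were 0.159 to 0.371, and effects of that size could not be called at this depth. In simulated counts for the whole library, a log2 change of 1 was called in 61.4% of changed pairs in TC28a2 and 65.7% in SW1353. The simulation gave all elements the same spread and changed 197 pairs in TC28a2 and 198 in SW1353. In the real library 1 pair was called per line, which makes the adjustment stricter. The share that would be called in the real data may thus be lower and was not computed.

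The lowest 4-allele mean of the locus in TC28a2, though not in SW1353, was found at 53809247. In TC28a2 its G reference element was at -0.14, -0.56 and -0.35, its A element at -0.32, -0.19 and -0.74, and its C element at -0.48, -0.41 and -0.75. These 3 were called below the scrambled level, while the T element, at -0.26, 0.10 and -0.23, was not. The fourth element called below in TC28a2 was the C allele at 53799905, at -0.46 (SE 0.148, edgeR adjusted p = 0.0365). Without replicate 1, 2 or 3 the number called below was 2, 1 and 1, and it was 0 among the elements below 500 barcode positions, which leave out 53809247.

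In SW1353 none of these elements was called below the scrambled level, but relative to the median of all elements the G reference element at 53809247 was called below, at -0.34 (edgeR adjusted p = 0.0455). The 4-allele mean at 53809247 was 0.10 ± 0.061 there against -0.36 ± 0.134 in TC28a2 (SD, n = 3), and at 53799905 -0.00 ± 0.050 against -0.30 ± 0.069. Both positions had a neighbour of higher mean within 200 bp. At 53809123, 124 bp from 53809247, the mean was 0.43 ± 0.052 in TC28a2 and 1.01 ± 0.106 in SW1353. At 53799847, 58 bp from 53799905, it was 0.31 ± 0.220 and 0.40 ± 0.168, with 1 of 4 alleles above the scrambled level in each line. Other reference elements of low mean, at 53818167, 53826028 and 53827962, did not pass the test in either line, with SDs over replicates of 0.243 to 0.918.

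Between the lines, 8 of 346 members were more active in SW1353, against 12.2% of all elements tested in both lines, and 0 were less active, against 0.014% (edgeR test of the difference, adjusted p under 0.05). At an unadjusted p under 0.05, 34 were more and 1 was less active, and DESeq2 called 13 and 0. The median member differed by 0.13 and the median of all elements by 0.18, both toward SW1353. All elements include others than variant elements, and the share called among variant elements alone was not computed. The 8 belonged to 4 positions. Without replicate 1 the count was 2 and without replicate 2 it was 3. It was 22 without the highest barcode of each element, 2 relative to the median of all elements, and 0 among the 306 members below 500 barcode positions.

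The position with most such elements was 53814363, where 3 of 4 alleles were called. Its C element was at 0.25, 0.03 and -0.02 in TC28a2 and at 0.81, 0.75 and 0.90 in SW1353, a difference of 0.71 (SE 0.140, edgeR adjusted p = 0.0026). Its T element was at -0.04, -0.04 and 0.21 in TC28a2 and at 0.89, 1.44 and 0.61 in SW1353, a difference of 0.92 (SE 0.193, edgeR adjusted p = 0.00433). The lines did not overlap for either element. The G reference element differed by 0.49 (SE 0.146) and passed, and the A element by 0.45 (SE 0.145, edgeR adjusted p = 0.0632) and did not. The 4 alleles averaged 0.12 ± 0.108 in TC28a2, where none was above the scrambled level, and 0.78 ± 0.098 in SW1353, where all 4 were.

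At 53809123 the C reference element was at 0.37, 0.82 and 0.53 in TC28a2 and at 0.84, 1.71 and 1.46 in SW1353, a difference of 0.75 (SE 0.226), and the A element differed by 0.73 (SE 0.200). The G and T elements differed by 0.20 (SE 0.179) and 0.57 (SE 0.220) and did not pass. At 53800200 the A and T elements differed by 0.62 (SE 0.183) and 0.50 (SE 0.128) and passed, and the C reference and G elements by 0.41 (SE 0.141) and 0.27 (SE 0.158) and did not. The eighth was the deletion element at 53822169, 0.46 (SE 0.135, edgeR adjusted p = 0.0349) higher in SW1353.

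The reference elements of largest difference did not pass the test. Toward SW1353 they were 53821615 (0.87, SE 0.379), 53810686 (0.84, SE 0.311) and 53820066 (0.81, SE 0.451), and toward TC28a2 53818813 (-0.67, SE 0.582), 53821413 (-0.51, SE 0.469) and 53799985 (-0.49, SE 0.375). The allelic effects themselves were not called as different between lines for any of the 257 pairs (0% of all pairs). By edgeR 2 had an unadjusted p under 0.05, against 1.91% of all pairs, and DESeq2 called 0 with 2 at that threshold. These 2 were T53830491C, at -1.25 (SE 0.518), and T53810686A, at -1.03 (SE 0.441). The pair of next lowest p was G53842908C, at 0.69 (SE 0.350). In simulated counts with the same limits this test called 21.8% of pairs changed by a log2 of 1 in SW1353 alone, so most differences of that size would be missed.

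For 9 positions the library held both the native reference element and a scrambled sequence of its window. The native element was above its scrambled partner at 5 of 9 positions in TC28a2 and at 3 of 9 in SW1353, with a mean difference of 0.07 ± 0.339 (SD over positions) and -0.11 ± 0.448. Whether the native and scrambled elements differ was not tested. At 53802494 the scrambled sequence was at 0.62 ± 0.053 in TC28a2 and 0.74 ± 0.080 in SW1353 (SD, n = 3) and was called above the level of the scrambled group in each line. The native element minus the scrambled one was -0.43, -0.26 and -0.84 in the replicates of TC28a2 and -0.59, -0.77 and -0.75 in SW1353. Of the 10 scrambled controls of the locus, 1 was called above in TC28a2 and 2 in SW1353. The second in SW1353 was that of 53819169, at 0.69 ± 0.394, while in TC28a2 it was at 0.39 ± 0.309 and not called. There the native element minus the scrambled one was -0.61, -0.42 and 0.30 in TC28a2 and -0.85, -0.41 and -0.81 in SW1353. The scrambled sequences of the locus are among the 191 that define the level 0.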

How the data were processed

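Barcode counts of 12 libraries (DNA and RNA of TC28a2 and SW1353, 3 replicates each) were analysed; the sample that linked barcodes to elements was not used. The values are raw counts per barcode, deposited by the authors without normalization for the first 500 cleaned barcode positions, per the file headers. The annotation tables were not used. The build was hg19, per the submitters' processing notes; the aligner, the counter and how barcodes were cleaned are not given in the sources used here.

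Counts were summed per element and library, with no barcode matched between DNA and RNA. Elements needed 10 DNA barcodes in every replicate. The quasi-likelihood test of edgeR 4.0.16 (R 4.3.3, TMM factors, two-sided) was run over all elements, pairs or positions of the library, with Benjamini-Hochberg adjustment over all of them and a threshold of 0.05: RNA against DNA relative to the scrambled median with replicate as a block, allele by RNA with a block for each replicate and allele, all 3 bases of a position together, and the differences between lines. Values per replicate were log2 with 0.5 added to each count, minus that replicate's scrambled median. The pipeline was tested on simulated data.

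DNA and RNA were isolated together, so same-numbered samples were treated as pairs, but their deviations over elements did not correlate (r from -0.0116 to 0.0231). Pairs and elements named singly were those past the threshold, the 5 pairs of lowest p per line and 3 between lines, the 3 positions of lowest p, all insertions and deletions, positions within 200 bp of a called pair, the 5 highest and lowest reference elements, and the 3 reference elements of largest difference between lines each way. Members, rules and lists were chosen with earlier results of these data known. Alternatives were DESeq2 1.42.0, no barcode minimum, no highest barcode, no block, each replicate left out, elements below 500 positions, and the median of all elements as zero. The highest barcode was the one of largest count in each sample, so it could differ between DNA and RNA and between replicates.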

Additional observations from a re-analysis of the deposited data

Results flagged for a closer look

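8 elements of the locus differed in activity between the lines in the test of that difference (edgeR, adjusted p under 0.05), each in the direction of SW1353. On the log2 scale the differences were 0.62 for the A and 0.50 for the T element at 53800200, 0.75 for the C reference and 0.73 for the A element at 53809123, and 0.49 for the G reference, 0.71 for the C and 0.92 for the T element at 53814363. The element with the deletion at 53822169 differed by 0.46. The C element at 53814363 passed the test without each replicate in turn and with each of the other alternatives that could test it. The A element at 53809123 passed with 3 of 9 alternatives (edgeR adjusted p up to 0.237) and the C reference there with 5 of 9 (up to 0.358). The G reference at 53814363 passed with 4 of 8 (up to 0.362), and the A and T elements at 53800200 with 5 of 8 each (up to 0.376 and 0.217). The T element at 53814363 did not pass without replicate 1 (0.92, edgeR adjusted p = 0.055) or replicate 2 (0.64, edgeR adjusted p = 0.0776). The deletion element did not pass without replicate 3 (0.28), without replicate 1 (0.51) or relative to the median of all elements (0.29). Elements at 53800200, 53814363 and 53822169 filled position 500 in TC28a2, and those at 53809123 did not; the part of lost barcodes in these differences was not tested.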

How the results depend on the processing

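The activity counts moved most. Members above the scrambled level in TC28a2 (115) numbered 177 without the highest barcode, 20 relative to the median of all elements and 69 to 76 with a replicate left out; those below (4) numbered 0 below 500 positions, 11 relative to all elements and 1 to 2 with a replicate left out. In SW1353 the counts above and below changed from 148 and 0 to 30 and 16 relative to all elements, and 0 to 1 below with a replicate left out. Members higher in SW1353 (8) numbered 13 by DESeq2, 22 without the highest barcode, 2 relative to all elements, 0 below 500 positions and 2 to 6 with a replicate left out. The called pairs fell from 1 to 0 in TC28a2 below 500 positions, where the deletion at 53822169 could not be tested, and numbered 0 to 1 in SW1353 with a replicate left out. Relative to all elements, the zero moved by 0.28 in TC28a2 (-0.28 to 0.00) and from -0.50 to -0.05 in SW1353. Other causes were not tested.

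Without the replicate block 115 members were above and 4 below in TC28a2, 153 and 0 in SW1353, 11 were higher in SW1353, and 1 pair was called in each line; among elements and pairs named singly, the line difference of the G element at 53814363 was the only call lost (0.48, edgeR adjusted p = 0.0537).

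Signs turned for values near 0 or with wide errors. Without the highest barcode these were the ACC deletion in TC28a2 (-0.0897), 53799905 in SW1353 (0.0619; 0.0435 below 500 positions) and the line difference of 53821413 (0.0173). Without the block they were the TC insertion in TC28a2 (0.0012) and 53818167 in SW1353 (-0.0081). Relative to all elements, 53809247 (-0.34, then called below) and 53818167 (-0.44) turned in SW1353. With a replicate left out, effects in TC28a2 ranged from -0.0945 to 0.11 (ACC), -0.25 to 0.0362 (AAA) and -0.23 to 0.12 (TC insertion), and in SW1353 from -0.11 to 0.30 (ACC), -0.23 to 0.20 (TTTT) and -0.0329 to 0.39 (TC insertion). The line difference of the called deletion ranged from -0.23 to 0.27. Reference activity ranged from -0.33 to 0.0444 (53826028) and -0.28 to 0.0845 (53818167) in TC28a2, and from -0.61 to 0.30 (53827962), -0.0333 to 0.0291 (53799905) and -0.0656 to 0.16 (53818167) in SW1353; line differences ranged from -1.13 to 0.22 (53821413) and -0.79 to 0.0051 (53799985).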

Other observations

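How alike neighbouring windows were was described in a pair of ways, the second chosen after the first had been seen. Over 4-allele means, positions up to 50 bp apart differed by a median of 0.234 in TC28a2 and 0.210 in SW1353 (16 pairs of positions), and those over 1000 bp apart by 0.228 and 0.293 (3726 pairs). At 50 to 100 bp the medians were higher, 0.324 and 0.415 (12 pairs), and at 100 to 200 bp they were 0.217 and 0.280 (24 pairs). Over reference elements alone the medians were 0.162 and 0.198 up to 50 bp, 0.223 and 0.339 at 50 to 200 bp, and 0.268 and 0.338 over 1000 bp. Reference elements up to 50 bp apart were thus more alike than distant ones in both lines. In the other comparisons of windows that would overlap, the medians lay on either side of those of distant ones. Alleles of 1 position differed by a median of 0.143 in TC28a2 and 0.189 in SW1353. These pairs of windows share positions and were not tested.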
